A study of Mus musculus with 24 samples.

Results

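The natriuretic peptide receptors and their cGMP effectors were followed in brown adipose tissue of C57BL/6J mice, as 5 genes chosen by name from the 23017 of the deposited table: Npr1, Npr2, Npr3, Prkg1 and Pde5a. All 5 had a row, and 3 of them, Npr1, Npr2 and Npr3, passed the filter on low values and were among the 17263 genes tested. PolyA RNA was sequenced from 24 samples in 4 groups of 6. Mice were given tirzepatide (TZP), an agonist at both the GIP and the GLP-1 receptor, a long-acting GIP receptor agonist (LAGIPRA), vehicle with pair feeding (PairFedVehicle), or vehicle alone (Vehicle). The series concerns obese, insulin-resistant mice and effects that do not depend on weight. Age, dose, duration and the group that set the pair-fed amount of food are not given in the sources used here. No transgene or deletion was labelled in any group.

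Natriuretic peptides are hormones of the heart and vessel wall that act through membrane receptors. Npr1 and Npr2 carry a guanylyl cyclase and make cGMP when bound, Npr1 mainly for the atrial and B-type peptides and Npr2 for the C-type peptide. Npr3 has no cyclase and takes the peptides into the cell for breakdown, and is known as the clearance receptor. In adipocytes, cGMP activates the kinase Prkg1, which promotes lipolysis and thermogenic gene expression, while the phosphodiesterase Pde5a breaks cGMP down. In mouse adipose tissue the level of Npr3 relative to Npr1 is known to set how strongly fat responds to these peptides.

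The 250 bases before the RefSeq start of Npr3 are shown because the receptor gene shares this stretch with a divergent non-coding gene, Gm5144, that has its own row in the table. They lie at chr15:11907372-11907621 on the minus strand of GRCm38.p6, and 93 of the bases fall in exons of Gm5144 in GENCODE M21. The capitals mark the one match to a motif that was searched.

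Npr3 upstream: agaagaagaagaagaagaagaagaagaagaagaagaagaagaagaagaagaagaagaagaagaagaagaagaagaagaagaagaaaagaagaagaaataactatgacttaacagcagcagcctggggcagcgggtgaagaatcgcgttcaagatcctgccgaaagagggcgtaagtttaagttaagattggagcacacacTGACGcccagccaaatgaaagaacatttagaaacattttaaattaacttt

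The stretch opens with a long GAA repeat and has a GC content of 38.8%, against a median of 52.4% over 32851 such windows, of which 9.7% were lower. Of 4 motifs searched on both strands, TGACG (the core of a cAMP response element) matched once, starting 50 bases before the start, and 17.8% of all windows hold it. GGGCGG (a GC box, in 32.7% of windows), GTAAACA (a FOXO element, in 3.17%) and TCACNCCAC (a sterol element, in 1.05%) are not written in this window. These matches describe letters only.

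Several libraries stood apart. A fitted slope of expression on log2 transcript length ran from -0.165 to -0.0643 in TZP samples 3 to 6, against 0.0179 and 0.0199 in TZP samples 1 and 2 and -0.00554 to 0.0581 in all samples of the other 3 groups. A proxy of depth, the low value that occurs most often in a library and may be that of 1 read, is higher in a shallower library. This 1-read value averaged 1.32 in TZP, 1.35 in LAGIPRA, 1.15 in PairFedVehicle and 1.04 in Vehicle. Read totals are unknown. The mean of 10 skeletal muscle markers was 0.82 in TZP sample 3, 0.51 in PairFedVehicle sample 5 and 0.77 in Vehicle sample 1, and between 4.67 and 10.95 in the other 21. Sample codes run consecutively within each group. Those of Vehicle and LAGIPRA follow one another, while those of TZP and those of PairFedVehicle each lie apart from the rest. An effect of processing order, if any, and the group therefore cannot be told apart. All 9 brown adipocyte markers were present in every sample. Samples of a group correlated at r = 0.911 to 0.977 across genes, which are not independent replicates.

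Npr3 was low in the pair-fed group alone. The choice of these genes named Npr3 with results of these data known, so its levels are a description and carry no test. Its log2 values in TZP samples 1 to 6 were 7.51, 7.05, 7.20, 7.75, 7.004 and 7.07, a mean of 7.27 ± 0.30 (SD, n = 6). In LAGIPRA they were 6.98, 7.38, 7.23, 7.06, 7.12 and 7.38, a mean of 7.19 ± 0.17. In PairFedVehicle they were 5.84, 5.60, 5.42, 5.09, 5.62 and 5.92, a mean of 5.58 ± 0.30. Vehicle samples had 7.25, 7.58, 7.11, 7.57, 7.86 and 7.42, a mean of 7.47 ± 0.26. The highest pair-fed sample, at 5.92, lay more than 1 log2 unit below the lowest of the other 18, at 6.98, while the 3 other groups overlapped one another.

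Relative to Vehicle, Npr3 in PairFedVehicle differed by -1.89 on the log2 scale (SE 0.15, 95% interval -2.19 to -1.58), which is 0.270-fold if the scale is log2 as inferred. Of the 17263 genes tested, 28 had a lower difference in this comparison. Every pair-fed sample lay below every Vehicle sample, as it did for 2.35% of genes tested. Against PairFedVehicle, Npr3 differed by 1.68 in TZP (95% interval 1.38 to 1.99; 3.21-fold) and by 1.61 in LAGIPRA (1.31 to 1.91; 3.05-fold). The samples did not overlap in either comparison, as was the case in that direction for 3.17% of genes in TZP and 3.70% in LAGIPRA. These 2 comparisons share the pair-fed samples with each other and with the first. Against Vehicle the differences were -0.20 in TZP (-0.51 to 0.10) and -0.28 in LAGIPRA (-0.58 to 0.03), and TZP and LAGIPRA differed by 0.07 (-0.23 to 0.38). With TZP samples 1 and 2 alone standing for TZP, Npr3 was 1.70 above PairFedVehicle. In bulk tissue, fewer cells that express a gene and less RNA of it per cell cannot be told apart.

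Gm5144, annotated as a non-coding RNA gene of a bidirectional promoter, was named after its values were seen. Its log2 values lay between 7.31 and 7.83 in TZP, 7.17 and 7.91 in LAGIPRA, 5.38 and 6.64 in PairFedVehicle, and 6.94 and 7.54 in Vehicle. The pair-fed samples again sat below all others. The difference between PairFedVehicle and Vehicle was -1.37 (SE 0.17), against PairFedVehicle it was 1.58 in TZP and 1.60 in LAGIPRA, and against Vehicle 0.21 in TZP and 0.23 in LAGIPRA. Gm5144 and Npr3 overlap on opposite strands, and whether counting used strand is not given in the sources used here. Reads from the part that both genes cover therefore cannot be assigned to either with certainty. Across the 18 samples outside PairFedVehicle the Pearson correlation of their values was 0.08, and across the 6 pair-fed samples it was 0.85, both as descriptions.

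**Figure D1:**
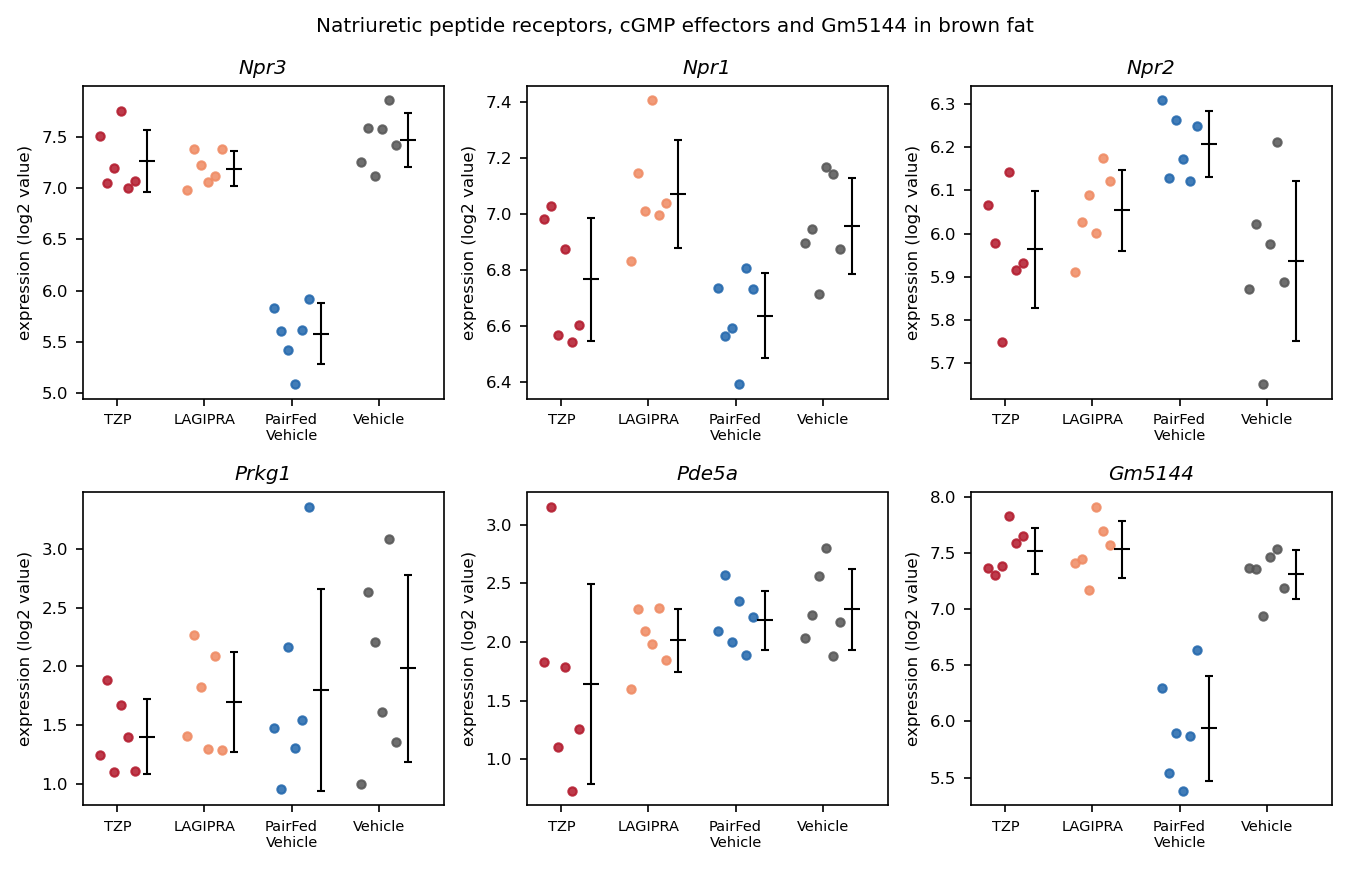
Log2 expression values of the 5 genes and of Gm5144 in each of the 24 samples by group, with the vertical axis of each panel on its own scale. Points are samples, and the bar beside them is the mean with its SD (n = 6). Npr3 and Gm5144 lie lowest in PairFedVehicle, below 5.92 and 6.64, with no overlap with the other groups.

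Npr1, the receptor that makes cGMP for the atrial peptide, was higher in LAGIPRA than in pair-fed mice. Its log2 values in LAGIPRA were 6.83, 7.15, 7.01, 7.41, 6.996 and 7.04, a mean of 7.07 ± 0.19 (SD, n = 6). In PairFedVehicle they were 6.74, 6.56, 6.59, 6.39, 6.81 and 6.73, a mean of 6.64 ± 0.15. All LAGIPRA samples were above all pair-fed samples, though only just, at 6.83 against 6.81. Such a lack of overlap in that direction was seen for 3.70% of genes tested. The difference was 0.44 (SE 0.11, 95% interval 0.21 to 0.66; 1.35-fold), with an adjusted p of 0.0091 from limma over all genes tested. In that comparison 11.9% of the genes tested passed, and 7.30% of the genes tested passed as higher. The difference stayed past the threshold under every alternative run, with an adjusted p between 0.0019 and 0.0372. With the 1-read value as covariate it was 0.31. As a description, Npr1 deviations from group means had r = 0.66 with those of the 1-read value over the 24 samples. This was the highest r with that value among the genes followed. The 1-read value averaged 1.35 in LAGIPRA and 1.15 in PairFedVehicle. What depth contributes to the Npr1 difference was not tested beyond this.

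In TZP the samples differed among themselves: samples 1, 2 and 4 had 6.98, 7.03 and 6.88, and samples 3, 5 and 6 had 6.57, 6.54 and 6.61. The TZP mean was 6.77 ± 0.22, against 6.96 ± 0.17 in Vehicle, where the samples had 6.90, 6.95, 6.71, 7.17, 7.15 and 6.88. TZP overlapped every other group. Npr1 in TZP differed by -0.19 from Vehicle (adjusted p = 0.21 from limma), by 0.13 from PairFedVehicle (adjusted p = 0.45) and by -0.30 from LAGIPRA (95% interval -0.53 to -0.08; adjusted p = 0.14). The shares of genes that passed in these 3 comparisons were 22%, 16.4% and 0.400%. The alternatives went both ways. With the length slope as covariate, an alternative chosen after the data were seen, the difference from Vehicle was 0.01, and with TZP samples 1 and 2 alone it was 0.05. With the 1-read value as covariate it was -0.37 and passed (adjusted p = 0.0133 from limma), and the difference from LAGIPRA passed with array weights (-0.35; adjusted p = 0.0459). What the length slope contributes to the TZP values was not tested beyond this.

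Pair feeding and Npr1 did not reach the threshold: PairFedVehicle differed from Vehicle by -0.32 (95% interval -0.54 to -0.10; adjusted p = 0.064 from limma), where 8.61% of genes passed. The groups overlapped. The call turned with the setting, since the adjusted p was 0.0264 with array weights, 0.0058 with the 1-read value as covariate, 0.0438 without Vehicle sample 3 and 0.0489 without PairFedVehicle sample 5. LAGIPRA differed from Vehicle by 0.11 (-0.11 to 0.34; adjusted p = 0.48), in a comparison where 13.7% of genes passed. That difference was -0.08 with the 1-read value as covariate.

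Npr2, the receptor for the C-type peptide, was the one member that was highest in pair-fed mice. Its log2 values in PairFedVehicle were 6.31, 6.13, 6.26, 6.17, 6.12 and 6.25, a mean of 6.21 ± 0.08 (SD, n = 6). The Vehicle samples had 5.87, 6.02, 5.65, 5.98, 6.21 and 5.89, a mean of 5.94 ± 0.19. Vehicle sample 5 lay within the pair-fed range and the 5 others lay below it. Npr2 rose by 0.27 in PairFedVehicle relative to Vehicle (SE 0.08, 95% interval 0.10 to 0.44; 1.21-fold), with an adjusted p of 0.037 from limma.

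In TZP the values of Npr2 were 6.07, 5.98, 5.75, 6.14, 5.92 and 5.93, a mean of 5.96 ± 0.14. TZP sample 4 was the one above the lowest pair-fed sample. Npr2 fell by 0.24 in TZP relative to PairFedVehicle (95% interval -0.41 to -0.08; 0.845-fold; adjusted p = 0.040 from limma). LAGIPRA samples had 5.91, 6.03, 6.09, 6.00, 6.17 and 6.12, a mean of 6.05 ± 0.09, and samples 5 and 6 reached into the pair-fed range. The LAGIPRA difference was -0.15 from PairFedVehicle (-0.32 to 0.01; adjusted p = 0.23) and 0.12 from Vehicle (-0.05 to 0.28; adjusted p = 0.33). TZP differed by 0.03 from Vehicle (-0.14 to 0.19; adjusted p = 0.84) and by -0.09 from LAGIPRA (-0.26 to 0.08; adjusted p = 0.61).

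Both Npr2 calls were close to the threshold. In the fit to the 12 samples compared, the adjusted p was 0.0788 for PairFedVehicle against Vehicle and 0.0702 for TZP against PairFedVehicle. Leaving out single libraries ended the first call in 8 of 12 fits, with an adjusted p up to 0.0973, and the second in 7 of 12, with an adjusted p up to 0.0954. TZP samples 1 and 2 alone gave -0.18 against PairFedVehicle (adjusted p = 0.33). The first call was lost without Vehicle sample 1, 3, 4 or 6 or PairFedVehicle sample 1, 3, 4 or 6, and the second without TZP sample 3, 5 or 6 or PairFedVehicle sample 1, 3, 4 or 6.

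**Figure D2:**
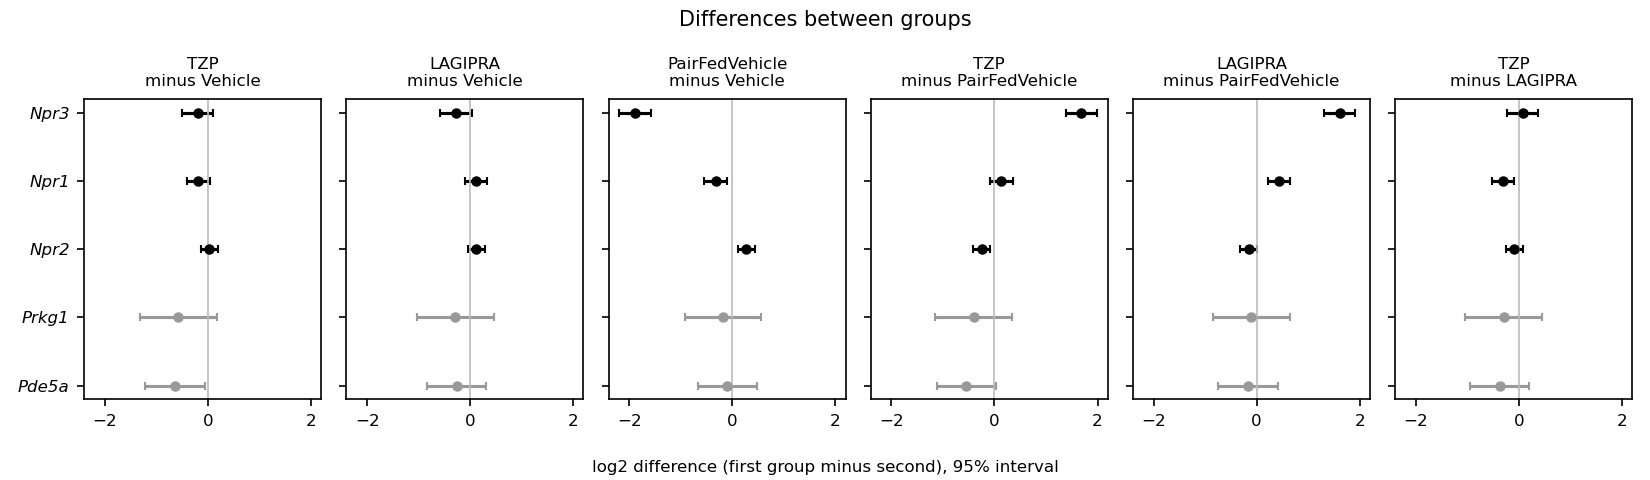
Differences in log2 value between groups, the first group named minus the second, with 95% intervals for the 5 genes in each of 6 comparisons. Grey points are genes below the filter, taken from a fit to every gene of the table. Npr3 stands at -1.89 in PairFedVehicle minus Vehicle and at 1.68 and 1.61 in the 2 comparisons of a drug with PairFedVehicle, while the points of the other 4 genes lie within 1 unit of 0.

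Within one library, the Npr1 value minus the Npr3 value sets the cyclase receptor beside the clearance receptor. The values are not per transcript length, so this difference is read between groups and its sign has no meaning of its own. It was -0.53, -0.02, -0.63, -0.88, -0.46 and -0.47 in TZP and -0.15, -0.24, -0.22, 0.35, -0.12 and -0.34 in LAGIPRA. In PairFedVehicle it was 0.90, 0.96, 1.17, 1.30, 1.19 and 0.81, and in Vehicle -0.36, -0.64, -0.40, -0.41, -0.71 and -0.55. The 6 pair-fed samples lay above the other 18, and LAGIPRA sample 4 was the highest of those. Means were -0.50 ± 0.28 in TZP, -0.12 ± 0.24 in LAGIPRA, 1.06 ± 0.19 in PairFedVehicle and -0.51 ± 0.14 in Vehicle (SD, n = 6 each). Because the difference holds Npr3, it was not tested. Removing an offset of 1 before the log gave 1.07 in PairFedVehicle and -0.51 in Vehicle.

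**Figure D3:**
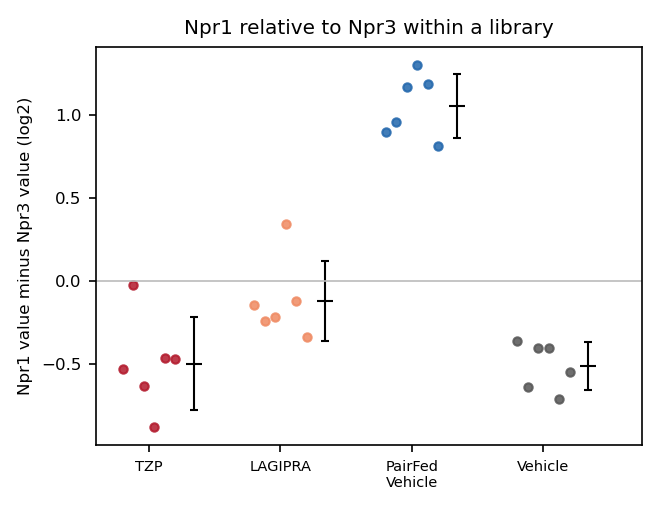
Log2 value of Npr1 minus that of Npr3 in each sample, by group, with the mean and SD (n = 6) beside the points. The pair-fed samples run from 0.81 to 1.30, and the samples of the other groups from -0.88 to 0.35.

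Prkg1 and Pde5a, a kinase that cGMP activates and an enzyme that breaks cGMP down, were near the floor of the table. Their means over the 24 samples were 1.72 and 2.03, below the 2.86 under which genes were left out, and values this low are worth few reads. Other genes of these kinds were higher, with means of 4.52 for Prkg2, another cGMP kinase, and 6.92 for Pde2a. Prkg1 ran from 1.11 to 1.88 in TZP, 1.29 to 2.27 in LAGIPRA, 0.96 to 3.36 in PairFedVehicle and 0.999 to 3.08 in Vehicle. The groups overlapped, and group means were 1.40, 1.70, 1.80 and 1.98 in that order. In a limma fit to every gene of the table, no Prkg1 difference passed, with adjusted p from 0.30 to 0.91. As a description, Prkg1 deviations from group means had r = 0.58 with those of the skeletal muscle mean over the 24 samples. PairFedVehicle sample 6 and Vehicle sample 5, highest in Prkg1, had the highest skeletal muscle means, 10.95 and 10.66. What carried muscle contributes to Prkg1 was not tested.

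Pde5a had its lowest mean in TZP and varied most there. The TZP samples had 1.83, 3.16, 1.10, 1.79, 0.73 and 1.25, a mean of 1.64 ± 0.85 (SD, n = 6), so that TZP held both the highest and the lowest sample of all 24. Means were 2.02 ± 0.27 in LAGIPRA, 2.19 ± 0.25 in PairFedVehicle and 2.28 ± 0.34 in Vehicle. The difference between TZP and Vehicle was -0.64 with an adjusted p of 0.13 in the limma fit to every gene, and the adjusted p of the other 5 comparisons ran from 0.23 to 0.91. TZP sample 5, the lowest, was one of the 4 with the steep length slope, and the longest annotated transcript of Pde5a has 7603 bases. Over the 24 samples, the deviations of Pde5a from its group means had r = 0.68 with those of the length slope, given as a description, and this was the highest r with that slope among the 5 genes. For Prkg1 and Npr3, with longest transcripts of 6976 and 6892 bases, r was 0.14 and 0.07. TZP sample 4, also one with the steep slope, had a Pde5a value of 1.79. What the length slope contributes to Pde5a was not tested.

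Around their group means, Npr3 moved with Npr2 and with Npr1 from sample to sample. These deviations do not hold the differences between groups by which Npr3 was chosen. By r of deviations with Npr3, Npr2 ranked 40 and Npr1 219 of 7093 genes with a mean of at least 5.33. Genes outside the family moved with Npr3 as closely, such as Ccdc3 at r = 0.68, so this was not particular to the receptors. Over 24 samples, the deviations of Npr2 and Npr3 had Pearson's r = 0.67 (permutation test within groups, adjusted p = 0.0066 over 10 pairs) and Spearman's rho = 0.65 (permutation, adjusted p = 0.0179). Within the groups r was 0.70 in TZP, 0.47 in LAGIPRA, 0.37 in PairFedVehicle and 0.97 in Vehicle, each over 6 samples. Without the 2 samples farthest from the median r was 0.56, and with the 1-read value and the length slope taken out it was 0.64.

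Npr1 and Npr3 deviated together with r = 0.57 (permutation, adjusted p = 0.0394) and rho = 0.60 (permutation, adjusted p = 0.0297). This was 0.46 in TZP, 0.12 in LAGIPRA, 0.83 in PairFedVehicle and 0.86 in Vehicle. Without the 2 farthest samples it was 0.82, and 0.50 given the 1-read value and the length slope. Npr1 and Npr2 had r = 0.52, just outside the threshold (permutation, adjusted p = 0.0514), and rho = 0.49 (permutation, adjusted p = 0.0833). None of the 7 pairs with Prkg1 or Pde5a passed, with r from 0.0070 to 0.43 and adjusted p from 0.12 to 0.98 by permutation. By rho none of the 7 passed either. At an unadjusted p under 0.05 there was none by r and 1 by rho, Npr2 with Prkg1 (rho = 0.47; permutation, unadjusted p = 0.0333, adjusted p = 0.0833).

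The genes whose values were most like those of Npr3 shared its low level in pair-fed mice. Likeness was taken as Pearson's r over the 24 samples among 7093 well-expressed genes, and is a description, since the samples fall into the pair-fed group and the rest. The 4 highest were Ccdc3 at 0.954, Fdps at 0.938, Mrps6 at 0.927 and Hist1h1e at 0.922. Ccdc3 encodes a secreted protein of fat and endothelium, Fdps makes farnesyl diphosphate in the cholesterol pathway, Mrps6 is a protein of the mitochondrial ribosome and Hist1h1e a linker histone. Mrps6 overlaps Slc5a3 on the same strand, and Hist1h1e overlaps Hist1h2be, so reads from the overlap of each pair cannot be told apart with certainty.

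Ccdc3 had 10.12, 9.80, 9.82, 9.90, 9.76 and 9.80 in TZP and 9.86, 9.98, 10.07, 10.15, 9.90 and 9.90 in LAGIPRA. In PairFedVehicle it had 9.43, 9.20, 9.16, 8.89, 9.13 and 9.21, against 10.04, 10.11, 9.76, 10.07, 10.15 and 9.95 in Vehicle. The pair-fed samples were lowest, and PairFedVehicle sample 4 was the lowest for both Ccdc3 and Npr3. Over the 18 other samples its r with Npr3 was 0.57, and over the 6 pair-fed samples 0.84. For Fdps, whose mean was 6.43 in TZP, 6.36 in LAGIPRA, 5.21 in PairFedVehicle and 6.30 in Vehicle, r over the 18 was 0.30. It was 0.59 for Mrps6 and 0.55 for Hist1h1e.

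The 4 lowest correlations belonged to genes highest in pair-fed mice. They were Gstt2, a glutathione transferase, at -0.918, Rtp3, a receptor-transporter protein, at -0.881, Rbmx, an RNA-binding protein, at -0.877 and Tcn2, the carrier of vitamin B12 in blood, at -0.861. Gstt2 averaged 6.04 ± 0.20 in TZP, 5.97 ± 0.11 in LAGIPRA, 7.33 ± 0.20 in PairFedVehicle and 5.89 ± 0.12 in Vehicle (SD, n = 6 each). Outside PairFedVehicle its r with Npr3 was -0.03, so its likeness in reverse lay between the groups. Rbmx kept r = -0.50 over those 18 samples, Rtp3 -0.20 and Tcn2 -0.08. Npr1 itself ranked 310 of 7093 in this order with r = 0.621, and Npr2 6456 with r = -0.448.

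**Figure D4:**
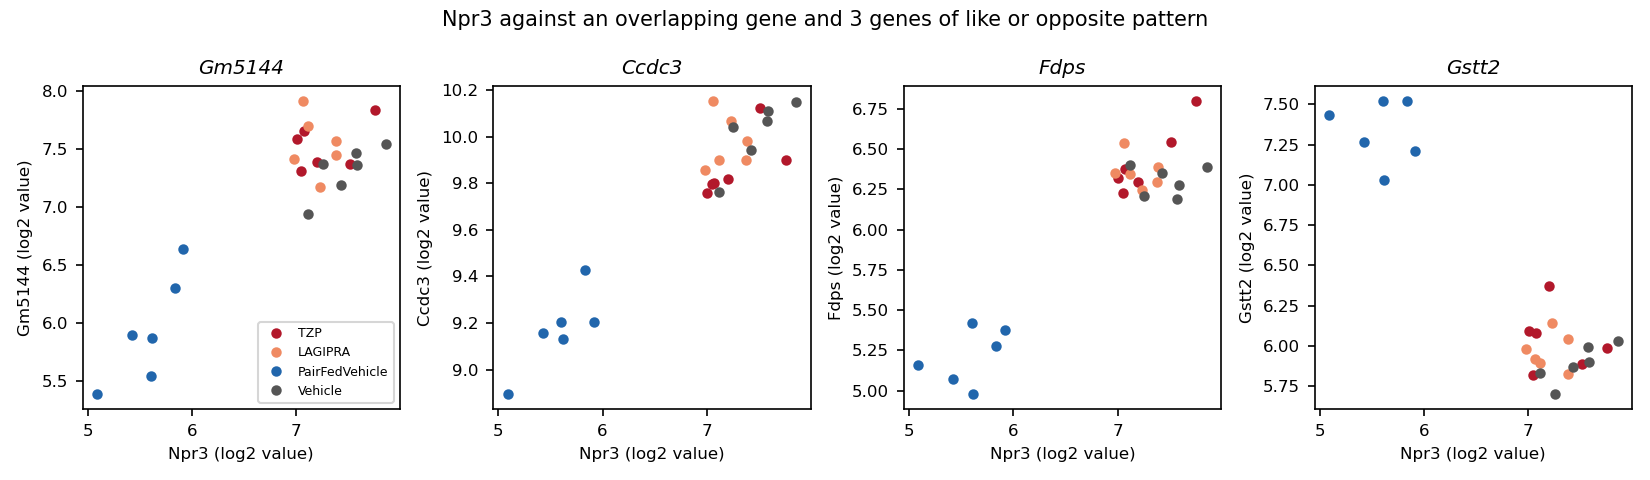
Values of Gm5144, Ccdc3, Fdps and Gstt2 against those of Npr3 in the 24 samples, log2 on both axes, coloured by group. The pair-fed samples form a cluster of their own at Npr3 values of 5.09 to 5.92, and the other 18 samples lie between 6.98 and 7.86.

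Other genes of the pathway were read from 5 lists with 49 genes that have a row, 42 of them tested. Against Vehicle, 2 passed as higher and 11 as lower in TZP, 3 and 2 in LAGIPRA, and 3 and 3 in PairFedVehicle. Against PairFedVehicle, 3 passed as higher and 6 as lower in TZP, and 4 and 3 in LAGIPRA. Between TZP and LAGIPRA none passed in limma, and 16 had an unadjusted p under 0.05. Of all genes tested, 11.7% passed as higher and 10.3% as lower in TZP, 8.70% and 5.03% in LAGIPRA, and 4.96% and 3.66% in PairFedVehicle, each against Vehicle. Against PairFedVehicle these shares were 8.39% and 8.02% in TZP and 7.30% and 4.55% in LAGIPRA. In all, 31% of the listed genes passed in TZP against Vehicle, 11.9% in LAGIPRA against Vehicle, 14.3% in PairFedVehicle against Vehicle, 21.4% in TZP against PairFedVehicle and 16.7% in LAGIPRA against PairFedVehicle. With TZP samples 1 and 2 alone, 2 listed genes passed as higher and 1 as lower in TZP against Vehicle, and 3 and 3 against PairFedVehicle. In that setting 4.73% of all genes passed against Vehicle and 5.97% against PairFedVehicle. The shares over all genes were thus also lower than with all TZP samples. Comparisons with the same second group share its samples.

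Of the peptides and the enzymes that process or degrade them, Nppa and Nppb had no row under these symbols. Nppc, Ostn and Corin were below the filter, and Furin, Mme and Ide were tested. Furin, a protease that cuts propeptides, was higher in TZP than in PairFedVehicle without overlap, as was so for 3.17% of genes tested. It rose by 0.29 (6.36 ± 0.06 against 6.07 ± 0.13, adjusted p = 0.0056 from limma). It rose by 0.25 in LAGIPRA relative to PairFedVehicle (adjusted p = 0.0195), a call that was lost in the fit to the 12 samples (adjusted p = 0.0717) and with the 1-read value as covariate (0.0658). Mme, neprilysin, which degrades natriuretic peptides, fell by 0.69 in PairFedVehicle relative to Vehicle (5.84 ± 0.14 against 6.53 ± 0.25, adjusted p = 0.0170 from limma). Every pair-fed sample was below every Vehicle sample, as was so for 2.35% of genes tested. Mme also fell by 0.66 in TZP relative to Vehicle (adjusted p = 0.0115), but TZP samples 1 and 2, at 6.50 and 6.54, lay in the Vehicle range, the 4 others ran from 5.22 to 5.93, and the difference was 0.16 with the length slope as covariate. Ide, insulin-degrading enzyme, fell by 0.74 in TZP relative to Vehicle (adjusted p = 0.0096), and differed by -0.25 with TZP samples 1 and 2 alone (adjusted p = 0.54).

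The nitric oxide receptor is the other main source of cGMP, a dimer of Gucy1a1 and Gucy1b1. Gucy1a1 had 4.20, 4.74, 4.32, 4.45, 4.10 and 3.69 in TZP, against 5.17, 4.89, 5.11, 5.12, 4.76 and 5.16 in PairFedVehicle. The groups did not overlap, as was so in that direction for 1.76% of genes tested, and Gucy1a1 fell by 0.79 (SE 0.14; adjusted p = 0.0006 from limma). Gucy1b1 fell by 0.51 in the same comparison (4.34 ± 0.24 in TZP against 4.85 ± 0.14 in PairFedVehicle; adjusted p = 0.0025), again without overlap. Gucy1a1 also fell by 0.45 in LAGIPRA relative to PairFedVehicle (adjusted p = 0.0352; up to 0.0790 in fits that left out 1 library) and by 0.39 in TZP relative to Vehicle (adjusted p = 0.0435, and 0.97 with the length slope as covariate). The other 3 tested genes of this list, Gucy1a2, Nos2 and Nos3, did not pass in any of the 6 comparisons. Nos1 and Gucy2g were below the filter.

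Beside the cyclases, 6 of 10 endothelial and 3 of 7 pericyte markers passed as lower in TZP than in PairFedVehicle. Against Vehicle, 6 and 5 passed as lower in TZP. Of all genes tested, 8.02% passed as lower in TZP against PairFedVehicle and 10.3% against Vehicle. The mean of the endothelial markers ran from 6.81 to 7.18 in TZP, 7.25 to 7.39 in LAGIPRA, 7.36 to 7.51 in PairFedVehicle and 7.26 to 7.53 in Vehicle. That of the pericyte markers ran from 6.01 to 6.90 in TZP, 6.83 to 7.001 in LAGIPRA, 6.86 to 7.08 in PairFedVehicle and 6.85 to 7.22 in Vehicle. TZP had the lowest mean in both. Within TZP the pericyte mean was 6.82 and 6.90 in samples 1 and 2, near the LAGIPRA range, and 6.53, 6.30, 6.05 and 6.01 in samples 3 to 6, those with the steep length slope. With TZP samples 1 and 2 alone, a setting added after the data were seen, 3 endothelial and 2 pericyte markers passed as lower in TZP than in PairFedVehicle, and 1 and 1 as lower than in Vehicle, where 5.97% and 4.73% of all genes passed. In LAGIPRA against PairFedVehicle, where Npr1 rose, the median difference was -0.12 over the endothelial markers and 0.03 over the brown adipocyte markers. Over all genes tested it was -0.01. There 1 of 7 pericyte markers passed as lower, as did 4.55% of all genes tested. In PairFedVehicle against Vehicle 4 of 9 brown adipocyte markers and 2 endothelial markers passed as higher and 1 endothelial marker as lower. Of all genes tested, 4.96% passed as higher and 3.66% as lower in that comparison. No defining marker of the brown adipocyte, endothelial and pericyte lists was at 0 in any sample, and the part of these cells in the receptor values was not tested.

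Among 11 tested effectors of cGMP, Rgs2, a regulator of G protein signalling that the kinase activates, rose by 0.59 in PairFedVehicle relative to Vehicle (8.21 ± 0.22 against 7.62 ± 0.13; adjusted p = 0.0059 from limma) and by 0.57 in LAGIPRA relative to Vehicle (8.18 ± 0.33; adjusted p = 0.0112). Neither group overlapped Vehicle, as was so for 2.41% of genes tested as higher in PairFedVehicle and 3.16% as higher in LAGIPRA. Rock2, a serine/threonine kinase, was lower in PairFedVehicle than in Vehicle without overlap, as was so for 2.35% of genes tested. It fell by 0.57 (5.09 ± 0.15 against 5.66 ± 0.10, adjusted p = 0.0040 from limma). It fell by 0.54 in TZP relative to Vehicle (adjusted p = 0.0035), and differed by -0.21 with TZP samples 1 and 2 alone (adjusted p = 0.32). Rock2 rose by 0.39 in LAGIPRA relative to PairFedVehicle (adjusted p = 0.0329), a call lost in 8 of 12 fits without 1 library. Creb1 fell in TZP by 0.42 and in LAGIPRA by 0.44 relative to Vehicle (adjusted p = 0.0097 and 0.0153), and these calls were lost with the length slope (0.33) and with the 1-read value (0.0778) as covariates. Mrvi1, a partner of the kinase in smooth muscle, had 3.42, 3.73, 2.47, 2.22, 1.71 and 0.82 in TZP, against 3.65, 3.72, 3.52, 3.54, 3.60 and 3.46 in PairFedVehicle. It fell by 1.19 (adjusted p = 0.0127), but TZP samples 1 and 2 differed from PairFedVehicle by -0.01, and the low samples are those with the steep length slope.

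Of the phosphodiesterases, Pde1c, which breaks down cGMP and cAMP, was lower in pair-fed mice than in each of the other groups. It had 5.58, 4.50, 3.56, 4.76, 4.90 and 3.91 in TZP and 4.13, 4.89, 4.53, 4.21, 4.11 and 4.74 in LAGIPRA. In PairFedVehicle it had 2.65, 2.13, 2.95, 2.14, 4.12 and 4.22, against 4.21, 3.73, 3.68, 4.63, 4.57 and 4.52 in Vehicle. Pair-fed samples 5 and 6 lay in the range of the other groups and the 4 others below it. Pde1c rose by 1.501 in TZP (SE 0.36; adjusted p = 0.0064 from limma) and by 1.40 in LAGIPRA (adjusted p = 0.0117) relative to PairFedVehicle, and fell by 1.19 in PairFedVehicle relative to Vehicle (adjusted p = 0.0389). The last call was lost in 8 of 12 fits without 1 library and in the fit without a filter (adjusted p = 0.0535). The first was at 0.0506 in the fit to 12 samples.

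Pde2a, a phosphodiesterase that cGMP itself stimulates, had 6.75, 6.94, 6.82, 6.62, 6.63 and 6.36 in TZP, against 7.08, 7.13, 7.18, 7.08, 7.18 and 7.12 in PairFedVehicle. It fell by 0.44 (SE 0.07, adjusted p = 0.0004 from limma) without overlap, as was so in that direction for 1.76% of genes tested. Relative to Vehicle, Pde2a fell by 0.28 in TZP (adjusted p = 0.0090 from limma, and 0.32 with TZP samples 1 and 2 alone). It fell by 0.22 in LAGIPRA relative to PairFedVehicle (adjusted p = 0.0487), a call lost in 11 of 12 fits without 1 library. Pde1b, which breaks down both nucleotides on calcium signals, fell by 0.70 in LAGIPRA relative to PairFedVehicle (4.06 ± 0.10 against 4.75 ± 0.20; adjusted p = 0.0025), without overlap, as was so in that direction for 2.15% of genes. It fell by 0.60 in LAGIPRA relative to Vehicle (adjusted p = 0.0126, and 0.17 with the 1-read value as covariate). Abcc5, a pump that exports cyclic nucleotides, fell by 0.42 in TZP relative to Vehicle (adjusted p = 0.0023) and by 0.39 relative to PairFedVehicle (adjusted p = 0.0040), and both calls were lost with TZP samples 1 and 2 alone (0.16 and 0.25). Of the 11 genes tested in this list, 1 passed as higher and 5 as lower in TZP against Vehicle, and 1 and 3 against PairFedVehicle. The gene higher against Vehicle was Pde6d, a subunit that does not itself break down cGMP.

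Of 12 genes of thermogenic and lipolytic output, Map2k6, a kinase that activates p38, was higher with both drugs than with pair feeding. It had 4.21, 3.45, 3.54, 3.96, 3.88 and 3.69 in TZP and 4.22, 3.41, 3.88, 4.29, 4.23 and 4.11 in LAGIPRA. PairFedVehicle samples had 3.35, 2.68, 3.23, 3.15, 2.67 and 3.16, all below both. Such a lack of overlap in that direction was seen for 3.17% of genes tested in TZP and 3.70% in LAGIPRA. Map2k6 rose by 0.75 in TZP (adjusted p = 0.0078 from limma) and by 0.98 in LAGIPRA (adjusted p = 0.0011), and in TZP the call was lost with the length slope as covariate (0.0870). Pnpla2, the lipase that starts triglyceride breakdown, rose by 0.56 in PairFedVehicle (11.56 ± 0.28 against 10.99 ± 0.17; adjusted p = 0.0038) and by 0.44 in LAGIPRA (adjusted p = 0.0200) relative to Vehicle, and the second call was lost in 4 of 12 fits without 1 library and with the 1-read value as covariate (0.27). Ucp1, the uncoupling protein of brown fat, averaged 15.39 ± 0.30 in TZP, 15.31 ± 0.23 in LAGIPRA, 15.34 ± 0.14 in PairFedVehicle and 14.90 ± 0.14 in Vehicle. It rose by 0.50, 0.41 and 0.45 relative to Vehicle (adjusted p = 0.0058, 0.0274 and 0.0208), and the LAGIPRA call was lost in 5 of 12 fits without 1 library. Ucp1 is near the top of each library, where the authors' equal quantiles give the same value to several samples, such as 15.09 in 4 of them.

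**Figure D5:**
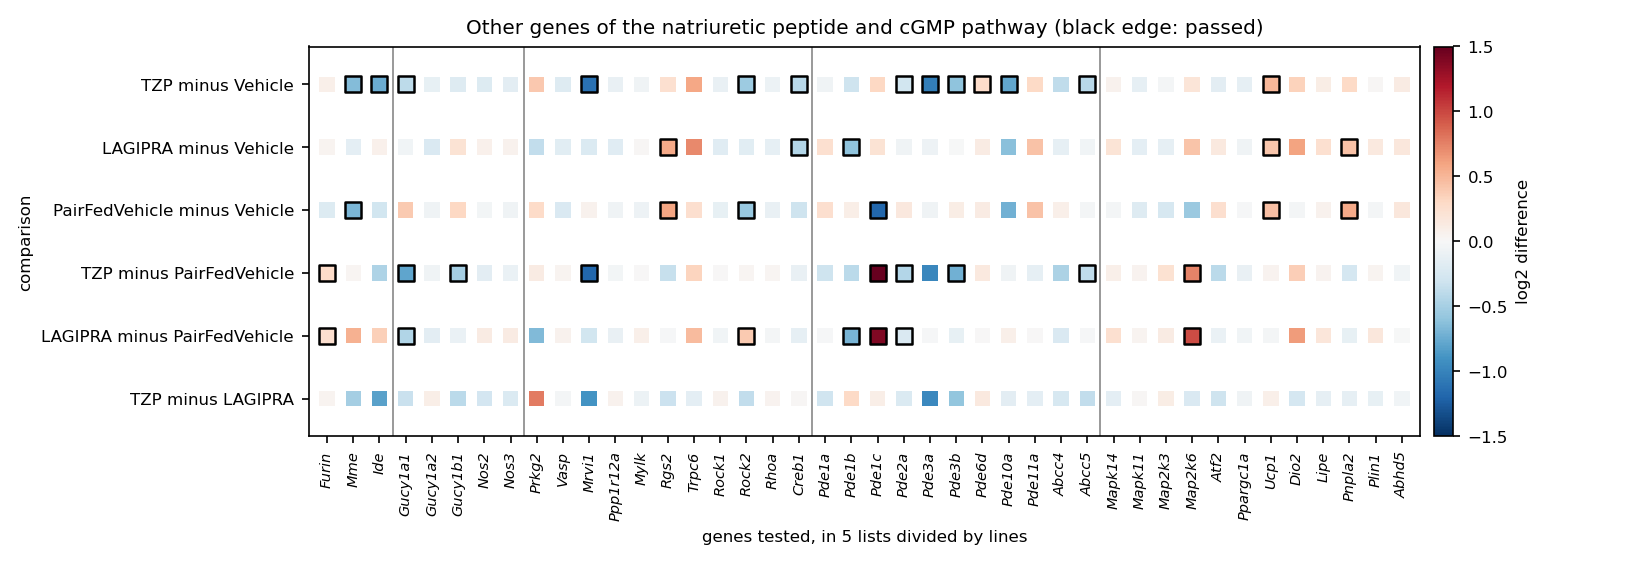
Differences in log2 value for the 42 tested genes of the 5 pathway lists in the 6 comparisons, the first group minus the second, as a colour from -1.5 to 1.5. A black edge marks a gene that passed in limma. Pde1c is the darkest cell in the rows of TZP and LAGIPRA minus PairFedVehicle, at 1.501 and 1.40, and no cell has an edge in TZP minus LAGIPRA.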

How the data were processed

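PolyA RNA of brown adipose tissue was sequenced in 24 samples, 6 per group, extracted with TRIzol reagent and RNeasy lipid columns, per the labels' protocols. The submitters' processing notes name cutadapt 1.9.1 and GSNAP with no role. The build, annotation, counter and strand setting are not given in the sources used here. Deposited values were read as log2 expression with an offset near 1, which the authors rolled up to genes and brought to equal quantiles, as inferred from the values: they ran from -0.50 to 22.35, and the upper quartile of a library lay between 6.208 and 6.21. An offset understates changes of low genes. Counts of reads are not analysed here, so depth is unknown. The value between 0.3 and 3 that occurs most often was taken as the 1-read value.

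The 25% of genes with the lowest mean (below 2.86; 5754 genes) were left out. Differences, SE and 95% intervals came from limma 3.58.1 in R 4.3.3, 1 mean per group over all 24 samples, with a mean-variance trend, and two-sided Benjamini-Hochberg p over the 17263 genes tested at a threshold of 0.05. Passed means past that threshold. Nothing says whether samples are separate animals, so p-values measure the spread between samples. Deviations from group means were permuted within groups (100000 permutations, two-sided). Transcript lengths, the longest per gene, came from GENCODE M21 and were known for 89.25% of genes tested. The upstream sequence and the windows came from RefSeq on GRCm38.p6. Figures used matplotlib 3.10.9 in Python 3.11.15. The fit was tested on simulated data.

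The genes and lists were chosen with earlier results of these data known. Up to 4 genes per pathway list were named, those with the smallest adjusted p in any comparison. Likeness to Npr3 took the 4 highest and 4 lowest correlations among genes with a mean of at least 5.33, leaving out predicted models. Gucy2c and Gucy2e had no row under these symbols, and Kcnma1 and Pde9a were below the filter. Irag1, also listed, is another symbol of Mrvi1, which was tested under that name. Alternatives were other filters, variance models, sample weights, covariates, length corrections, the replicate number as a block and fits without single libraries.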

Additional observations from a re-analysis of the deposited data

Results flagged for a closer look

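Dixon's test of the highest and the lowest sample of each group marked 4 of 128 sets of 6 samples, and chance marks about 1 in 20. Npr1 minus Npr3 in LAGIPRA sample 4 was 0.35, against -0.12 in the nearest sample of its group. That library had the highest Npr1 value, 7.41, and the highest value of 1 read, 1.68, and its group mean, -0.12, was below every pair-fed sample. Mme in LAGIPRA sample 2 was 6.69, against 6.42 in the nearest sample. Creb1 in LAGIPRA sample 5 was 3.80, below the nearest at 4.20. Rtp3 in LAGIPRA sample 2 was 5.67, below the nearest at 5.91. Whether depth takes a part in any of these was not tested.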

How the results depend on the processing

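Of 270 differences of Npr1 and Npr2 under alternatives, 235 kept direction and side of the threshold, 23 were no longer past it, 6 were newly past it and 6 turned. Prkg1 and Pde5a, with no call, kept direction in 153 of 156. The Npr3 differences kept their direction in every alternative run except TZP minus LAGIPRA, which ran from -0.02 to 0.13 in fits without 1 library. Without single libraries, Npr3 ran from -1.96 to -1.79 in PairFedVehicle minus Vehicle, from 1.59 to 1.75 in TZP minus PairFedVehicle and from 1.51 to 1.68 in LAGIPRA minus PairFedVehicle. Npr1 in LAGIPRA minus PairFedVehicle passed in all of them. For the calls that changed, the cause was not tested.

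Npr1 in PairFedVehicle minus Vehicle was past the threshold with array weights (-0.33) and with the 1-read value as covariate (-0.39), and ran from -0.37 to -0.27 without single libraries. Npr1 in TZP minus LAGIPRA passed with array weights (-0.35). Npr1 in TZP minus Vehicle passed with the 1-read value (-0.37), and turned to 0.0125 with the length slope as covariate and 0.0486 with TZP samples 1 and 2 alone. Npr1 in LAGIPRA minus Vehicle turned to -0.0810 and Npr2 in TZP minus Vehicle to -0.0224 with the 1-read value. That difference of Npr2 ran from -0.0302 to 0.0818 without single libraries, turning without Vehicle sample 3 (-0.0302) and TZP sample 4 (-0.00883). Npr2 in PairFedVehicle minus Vehicle was not past the threshold in the fit to 12 samples (0.27) and with the 1-read value (0.25), and ran from 0.21 to 0.32 without single libraries. Npr2 in TZP minus PairFedVehicle was not past it in the fit to 12 samples (-0.24), with the length correction (-0.20), with the slope as a covariate (-0.24) and with TZP samples 1 and 2 alone (-0.18), and ran from -0.28 to -0.20 without single libraries.

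The count of genes past the threshold was 69 in TZP minus LAGIPRA. It was 15 with no filter and 15 without the variance trend, 1071 with array weights, 3 in 12 samples, 0 with the length slope (limma; 1010 at an unadjusted p under 0.05), 268 with the 1-read value, 2 with TZP samples 1 and 2 alone, and 0 to 1088 without single libraries (1043 without TZP sample 1, 1088 without TZP sample 2). In TZP minus Vehicle, 3805 became 2514 in 12 samples, 203 with the length slope, 2496 with the 1-read value and 817 with TZP samples 1 and 2 alone. In LAGIPRA minus Vehicle, 2370 became 4783 with array weights, 45 with the 1-read value and 1473 with the skeletal muscle covariate, and 945 to 3819 without single libraries. In TZP minus PairFedVehicle, 2832 became 1503 in 12 samples, 989 with the length slope and 1031 with TZP samples 1 and 2 alone. In LAGIPRA minus PairFedVehicle, 2046 became 3260 with array weights and 1258 with the 1-read value.

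The replicate number as a block left Npr2 outside the threshold in both comparisons (0.27, adjusted p = 0.0579, and -0.24, adjusted p = 0.0583 from limma) and gave 23 genes in TZP minus LAGIPRA. Of 36 pairs with the same number, 12 had correlated deviations over 0.1 (from -0.602 to 0.378), and 5 of 24 samples correlated best with their own number, so the numbers were not taken to pair samples. Gstt2 had r = 0.0415 with Npr3 in deviations from group means. Mme and Mrvi1 in TZP minus Vehicle turned to 0.16 and 0.25 with the length slope, and Mrvi1 to 0.0618 with TZP samples 1 and 2 alone. Of the other named pathway calls under alternatives, 100 were no longer past the threshold and 673 stayed. Prkg1 and Pde5a had the lowest means of the 5 genes, and what depth, unknown here, contributes to them was not tested.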
